A study of Mus musculus with 7 samples.

Results

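The chromatin contacts of *Gata3*-TSS and of the mG900 region were compared in WT Th2 cells by setting the 4C-seq list of each bait against the other. The *Gata3*-TSS bait lies at chr2:9876900 and the mG900 bait at chr2:8946700, 930.2 kb downstream from it (GRCm38, mm10). The regions compared were 366 of the 1153 significant interacting regions in the 7 libraries of the series, 129 of the *Gata3*-TSS bait and 237 of the mG900 bait. A region was classed as contacted by both baits when it shared at least 1 base with a region of the other list, and otherwise as contacted by 1 bait only. The classes were counted in a window of 2 Mb around the locus (chr2:8500000-10500000), on the rest of chromosome 2, and on the other chromosomes.

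Each list came from 1 library. Both were of WT mouse CD4+ T cells labelled as WT, with no deletion or transgene named. Naive cells from lymph nodes and spleen were stimulated with anti-CD3ε and anti-CD28 for 3 d, with IL-4 and anti-IFN-γ, which drive Th2 differentiation. The other 5 libraries were of WT naive and WT Th0 cells (activated without added cytokine) with each bait, and of Th2 cells that lack mG900 (mG900KO) with the *Gata3*-TSS bait. The lists hold no expression values, so the identity of the cells could not be checked against marker genes. Each list gives only the chromosome, start and end of its regions. With no counts, signal or score, the depth is unknown and a contact has no strength. With 1 library per bait there was no spread between replicates, and none of the differences below was tested. The methods give BglII as the enzyme of the second digestion for *Gata3*-TSS and DpnII for mG900, so that bait and second enzyme cannot be told apart, although DpnII is the enzyme on all labels.

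Gata3 is the zinc finger transcription factor that directs Th2 differentiation and is needed for T cell development. Its gene sits at the edge of a long stretch without protein-coding genes, and the control elements of such genes can lie far away in it. An enhancer reaches its promoter when the chromatin between them folds, and such folds are commonly held by cohesin and CTCF. In 4C-seq, fragments that were ligated to a bait are sequenced, so a bait at the promoter and a bait at the enhancer give views of the same locus from its 2 ends.

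Both baits were fragments between neighbouring NlaIII sites, which read CATG. The mG900 bait fragment spans chr2:8946523-8947293 (771 bp) and overlaps no gene of the GENCODE annotation. The *Gata3*-TSS bait fragment spans chr2:9875846-9877485 (1640 bp) inside *Gata3*, and of its last 240 bases 134 are coding sequence of *Gata3* and 189 lie in an exon of the antisense gene *Gm13256*. The reference sequence of 240 bases at the NlaIII end of each fragment is shown on the plus strand, since these are the points from which every contact below was seen. Capitals mark the NlaIII site and any match to AGATAA, bound by factors of the GATA family, TGANTCA, bound by AP-1, or AGGNGGC, which is part of the CTCF motif. All were searched on both strands, and a match to AP-1 reads as such on either strand. The mG900 stretch (chr2:8946523-8946762) held 1 AP-1 match, and the *Gata3* stretch (chr2:9877246-9877485) held none of the 3 motifs.
mG900 bait fragment: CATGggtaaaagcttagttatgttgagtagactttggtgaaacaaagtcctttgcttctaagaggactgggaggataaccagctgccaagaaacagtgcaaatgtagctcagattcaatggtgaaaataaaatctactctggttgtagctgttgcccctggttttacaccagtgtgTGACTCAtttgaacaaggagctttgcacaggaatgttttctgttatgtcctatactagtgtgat
*Gata3*-TSS bait fragment: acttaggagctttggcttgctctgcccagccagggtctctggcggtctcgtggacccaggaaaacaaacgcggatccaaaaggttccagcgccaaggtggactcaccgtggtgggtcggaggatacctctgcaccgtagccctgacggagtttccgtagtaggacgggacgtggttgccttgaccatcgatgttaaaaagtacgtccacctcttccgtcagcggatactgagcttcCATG
A match describes letters in the reference and does not show that a factor binds there.

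Each bait called the other. With the *Gata3*-TSS bait, a region at chr2:8935471-8970937 (35.5 kb, 174 NlaIII sites) covered the whole mG900 bait fragment, with 11.1 kb below it and 23.6 kb above it. With the mG900 bait, a region at chr2:9858376-9909199 (50.8 kb, 175 NlaIII sites) covered the whole *Gata3*-TSS bait fragment, with 17.5 kb below it and 31.7 kb above it. The region at mG900 was the longest that the *Gata3*-TSS bait alone called in the window, and the region at *Gata3* the longest that the mG900 bait alone called there. Neither could count as contacted by both baits. A bait called no region close to itself, and the nearest edge lay 102.1 kb from the *Gata3*-TSS bait and 108.9 kb from the mG900 bait. The 4 ends of these regions are shown with the NlaIII site in capitals, since they set the limits of each call. With no signal in the lists, the limits of the contact itself are unknown.
*Gata3*-TSS bait at mG900, start, chr2:8935453-8935492: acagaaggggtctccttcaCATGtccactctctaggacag
*Gata3*-TSS bait at mG900, end, chr2:8970916-8970955: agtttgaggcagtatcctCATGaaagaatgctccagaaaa
mG900 bait at *Gata3*, start, chr2:9858358-9858397: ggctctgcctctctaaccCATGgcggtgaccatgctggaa
mG900 bait at *Gata3*, end, chr2:9909178-9909217: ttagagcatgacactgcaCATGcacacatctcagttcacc
Of the 732 region ends in both lists, 706 (96.4%) fell exactly on such a CATG, and all 732 lay within 10 bases of one.

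The contact at *Gata3* took in 31.7 kb of the 33.0 kb gene, with the open reading frames *4930412O13Rik* and *9230102O04Rik* and the antisense genes *Gm13256* and *Gm13262*. It was called with the mG900 bait in naive and Th0 cells as well. The contact at mG900 was not called with the *Gata3*-TSS bait in naive or Th0 cells. The other 3 libraries could not call it, since mG900KO cells lack the sequence and the mG900 libraries of naive and Th0 cells called nothing within 97.2 and 168.2 kb of their own bait. The region at *Gata3* held 36 CTCF matches (0.708 per kb), and the region at mG900 held 2 (0.0564 per kb), against 0.328 per kb over the window. The letters AGGNGGC are rich in G and C, and the part of GC content in these densities was not tested. AP-1 matches stood at 0.354 per kb at *Gata3* and 0.423 per kb at mG900, against 0.34 per kb over the window, and GATA matches at 0.63 and 0.874 per kb, against 0.791 per kb over the window. The promoters that RefSeq places inside these regions are shown for *Gata3* and for *Gm30957*, a RefSeq gene whose promoter lies wholly inside the mG900 bait fragment. Each is 250 bases before to 50 bases after a gene start, on the strand of its gene, with the same motifs in capitals. The region at *Gata3* also holds the promoters of *4930412O13Rik* (1 CTCF match) and *Gm13262* (1 GATA and 1 AP-1 match), which are not shown.
*Gata3* promoter, chr2:9878551-9878850: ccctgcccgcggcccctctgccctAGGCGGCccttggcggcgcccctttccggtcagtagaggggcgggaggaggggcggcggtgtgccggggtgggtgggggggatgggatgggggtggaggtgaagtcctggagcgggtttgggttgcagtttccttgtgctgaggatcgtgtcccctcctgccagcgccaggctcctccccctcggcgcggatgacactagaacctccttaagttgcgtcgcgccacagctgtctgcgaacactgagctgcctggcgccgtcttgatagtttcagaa
*Gm30957* promoter, chr2:8946686-8946985: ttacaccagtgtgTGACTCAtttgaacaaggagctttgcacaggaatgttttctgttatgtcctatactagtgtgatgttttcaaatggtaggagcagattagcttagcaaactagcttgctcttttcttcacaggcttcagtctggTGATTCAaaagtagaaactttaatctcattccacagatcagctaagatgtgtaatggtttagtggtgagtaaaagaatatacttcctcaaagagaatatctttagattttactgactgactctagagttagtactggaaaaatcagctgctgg
The *Gata3* promoter held 1 CTCF match, as did at least 1 in 29.4% of the 32851 RefSeq promoters of this length. The *Gm30957* promoter held 2 AP-1 matches, the first of them the match in the bait fragment, and 7.81% of the 32851 promoters held at least 1.

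**Figure D1:**
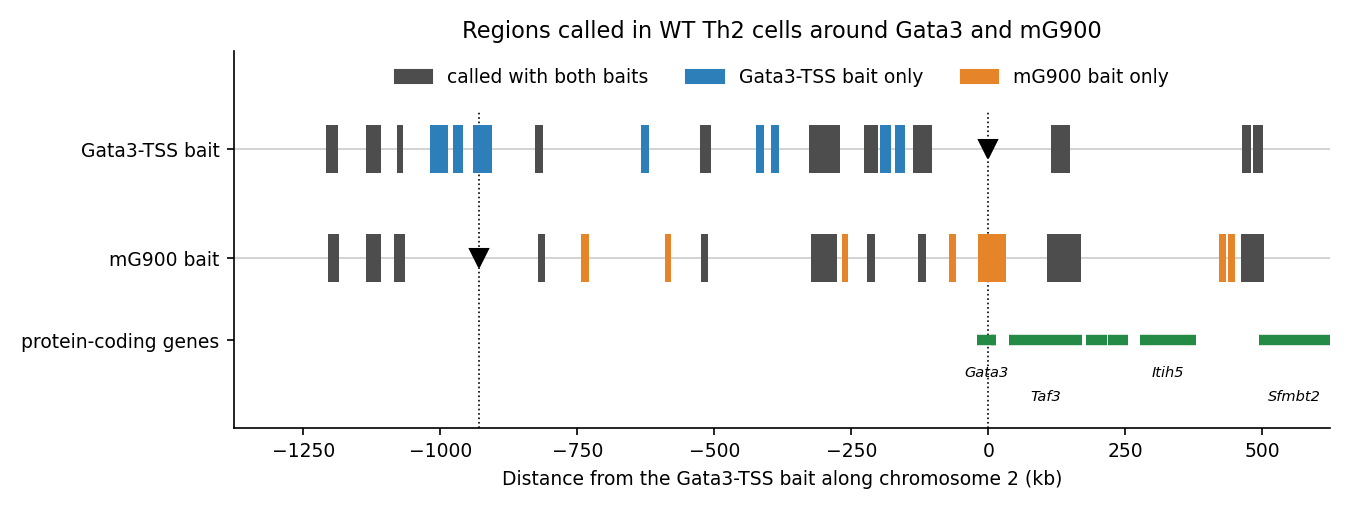
Regions called in WT Th2 cells in the window, by distance in kb from the *Gata3*-TSS bait, with the *Gata3*-TSS bait in the upper row and the mG900 bait in the lower row. Grey regions overlap a region of the other list, blue and orange regions do not, triangles mark the baits, and green bars are protein-coding genes; 11 of 19 and 10 of 17 regions are grey, and the widest orange region lies on the *Gata3*-TSS bait.

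In the window, most regions of each list were contacted by both baits. The *Gata3*-TSS list held 19 regions there, of which 11 (57.9%) overlapped the mG900 list, and the mG900 list held 17 regions, of which 10 (58.8%) overlapped the *Gata3*-TSS list. As a background for single fragments, 21.4% of the 10561 NlaIII fragments of the window lay inside a region of the *Gata3*-TSS list, and 17.5% lay inside a region of the mG900 list. The lists covered 454.0 kb and 395.9 kb of the window and shared 224.8 kb, which was 49.5% of the first and 56.8% of the second. The lists covered 22.7% and 19.8% of the window, so that 49.5% of the *Gata3*-TSS list stands beside the 19.8% of the window in the mG900 list, and 56.8% of the mG900 list beside the 22.7% in the *Gata3*-TSS list. A region many fragments long meets the other list by 1 base more easily than a fragment does, so the counts of shared regions are not on the scale of the fragment shares. Without the regions within 100 kb of a bait, which a bait cannot call around itself, 11 of 16 (68.8%) and 10 of 15 (66.7%) regions were shared.

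The shared regions formed 11 overlapping pairs, with 7.6 to 48.9 kb in common (median 16.6 kb). In 4 pairs the region of the mG900 bait lay wholly inside that of the *Gata3*-TSS bait, and in 4 the reverse held. In the gene-poor stretch between the baits there were 5 pairs. The most extensive was at 299.8 kb downstream from *Gata3*-TSS, where the *Gata3*-TSS bait called chr2:9548994-9606320 (57.3 kb) and the mG900 bait called chr2:9552596-9601537 (48.9 kb). All of the latter lay within the former, over the noncoding genes *Gm13218* and *Gm13220*. Nearer to *Gata3*, the baits shared 14.4 kb at chr2:9748859-9763224, which is 120.9 kb downstream from *Gata3*-TSS, and 14.4 kb at chr2:9656232-9670609, which is 213.5 kb downstream. Further away they shared 12.8 kb at chr2:9352668-9365502 (517.8 kb downstream), at the noncoding gene *Gm13219*, and 7.6 kb at chr2:9055564-9063202 (817.5 kb downstream), 112.7 kb from the mG900 bait. The last of these was the shortest overlap of the window.

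Beyond mG900, on the side away from *Gata3*, all 3 regions of the mG900 list were also called with the *Gata3*-TSS bait. The shared stretches were chr2:8796886-8809302 (12.4 kb), chr2:8740769-8767831 (27.1 kb) and chr2:8672476-8689055 (16.6 kb), at 1073.8, 1122.6 and 1196.1 kb downstream from *Gata3*-TSS. At chr2:8740769-8767831 the calls were nearly the same, since the shared stretch made up 99.4% of the *Gata3*-TSS region and 98% of the mG900 region. None of the 3 overlaps an annotated gene.

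Upstream from *Gata3*, all 3 regions of the *Gata3*-TSS list were also called with the mG900 bait. In *Taf3*, which encodes a subunit of the general transcription factor TFIID, the *Gata3*-TSS bait called chr2:9991684-10025490 (33.8 kb) inside the 62.5 kb that the mG900 bait called (chr2:9983701-10046187). The locus lies 131.7 kb from the *Gata3*-TSS bait and 1061.9 kb from the mG900 bait. At *Sfmbt2*, which encodes a Polycomb group protein, the mG900 bait called chr2:10337406-10380435 (43.0 kb), and the *Gata3*-TSS bait called 2 shorter regions inside it, chr2:10339045-10356818 and chr2:10359035-10378032. The second of these held the start of *Sfmbt2*. Between them in the annotation stand *Atp5c1*, *Kin*, *Itih2* and *Itih5*, with no base in either list. Of the 9 protein-coding genes in the window, 5 had a base in either list, and none of the 9 lies entirely between the baits.

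Most regions called with 1 bait lay between the baits. So did 11 of all 19 window regions of the *Gata3*-TSS list and 9 of all 17 of the mG900 list. The stretch between the baits is 930.2 kb of the 2 Mb window. Of the 8 regions of the *Gata3*-TSS bait alone, 2 lay beyond mG900, 6 between the baits and 0 upstream from *Gata3*. Of the 7 regions of the mG900 bait alone, 0 lay beyond mG900, 4 between the baits and 3 upstream from the *Gata3*-TSS bait, among them the contact on *Gata3*, since sides were set by midpoints. The class of those near a bait was fixed, since each bait called nothing around itself. This holds for both regions of the *Gata3*-TSS bait beyond mG900, for its contact on mG900, and for the regions of the mG900 bait on *Gata3* and at chr2:9805809-9817095. Around mG900 the *Gata3*-TSS bait called chr2:8858450-8890906 (32.5 kb) and chr2:8899833-8918563 (18.7 kb) beside the region on the bait itself, with midpoints 72.0 and 37.5 kb from the mG900 bait. A second group lay between the baits, at chr2:9678231-9699174 and chr2:9706631-9725516, between the shared stretches at 213.5 and 120.9 kb downstream. The other 3 were chr2:9242168-9257038, chr2:9453312-9468217 and chr2:9479926-9494613, each under 15 kb.

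Apart from the contact on *Gata3*, the 6 regions of the mG900 bait alone were 10.0 to 14.4 kb long. The region at chr2:9805809-9817095 had its midpoint 65.4 kb downstream from *Gata3*-TSS, within the stretch where the *Gata3*-TSS bait called nothing. Both chr2:10298690-10310398 and chr2:10313842-10326736 lay between *Itih5* and *Sfmbt2*, and the latter ended 12.3 kb from the nearest region of the *Gata3*-TSS bait. The region at chr2:9610283-9620263 ended 3.96 kb from the shared locus with *Gm13218* and *Gm13220*. The remaining pair was chr2:9133742-9148112 and chr2:9286927-9297273. All 15 regions that 1 bait alone called in the window lay within 100 kb of a region of the other list, with a median gap of 52.3 kb for the *Gata3*-TSS bait and 29.9 kb for the mG900 bait. Of all positions in the window, taken each kb, 90.6% lay within 100 kb of the mG900 list and 89% within 100 kb of the *Gata3*-TSS list.

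The shared regions of the window had the greater median length in both lists, which the classing favours, since a longer region meets the other list more easily. Their median length was 21.4 kb against 18.8 kb in the *Gata3*-TSS list, and 19.5 kb against 11.7 kb in the mG900 list. The GC content of shared regions was 41% in both lists, that of the regions of the *Gata3*-TSS bait alone 39.3%, and that of the regions of the mG900 bait alone 44.6%, with 40.7% over the window. Repeats made up 22.4% and 23.8% of the shared regions and 30.1% and 29% of the regions of 1 bait alone, with 30.5% over the window. GATA matches stood at 0.827 and 0.838 per kb in shared regions, at 0.714 per kb in the regions of the *Gata3*-TSS bait alone and 0.75 per kb in those of the mG900 bait alone, against 0.791 per kb over the window. For CTCF the density was 0.353 and 0.361 per kb in shared regions, 0.216 per kb with the *Gata3*-TSS bait alone and 0.527 per kb with the mG900 bait alone, where 36 of 64 matches lay in the region on *Gata3*.

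The same classing was made in the other cells that have a library with each bait. Among naive cells 1 of 21 regions of the *Gata3*-TSS list in the window (4.76%) and 1 of 6 of the mG900 list were shared. In Th0 cells 1 of 18 (5.56%) and 1 of 7 were shared. The overlap was 13.8 kb in naive cells, 4.0 kb in Th0 cells and 224.8 kb in Th2 cells, or 2.82%, 0.797% and 36% of the bases in either list. In naive cells it made up 15.8% of the mG900 list, beside the 20.8% of the window in the *Gata3*-TSS list. It made up 3.32% of the *Gata3*-TSS list, beside the 4.36% of the window in the mG900 list. In Th0 cells these values were 3.3% beside 19.2%, and 1.04% beside 6.04%. In both cells the overlap was thus below the share of the window covered. The *Gata3*-TSS list was of like size in the 3 kinds of cells (21, 18 and 19 regions), whereas the mG900 list held 6, 7 and 17. A longer list has more room for overlap, and the part of list size and of depth in these counts was not tested.

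**Figure D2:**
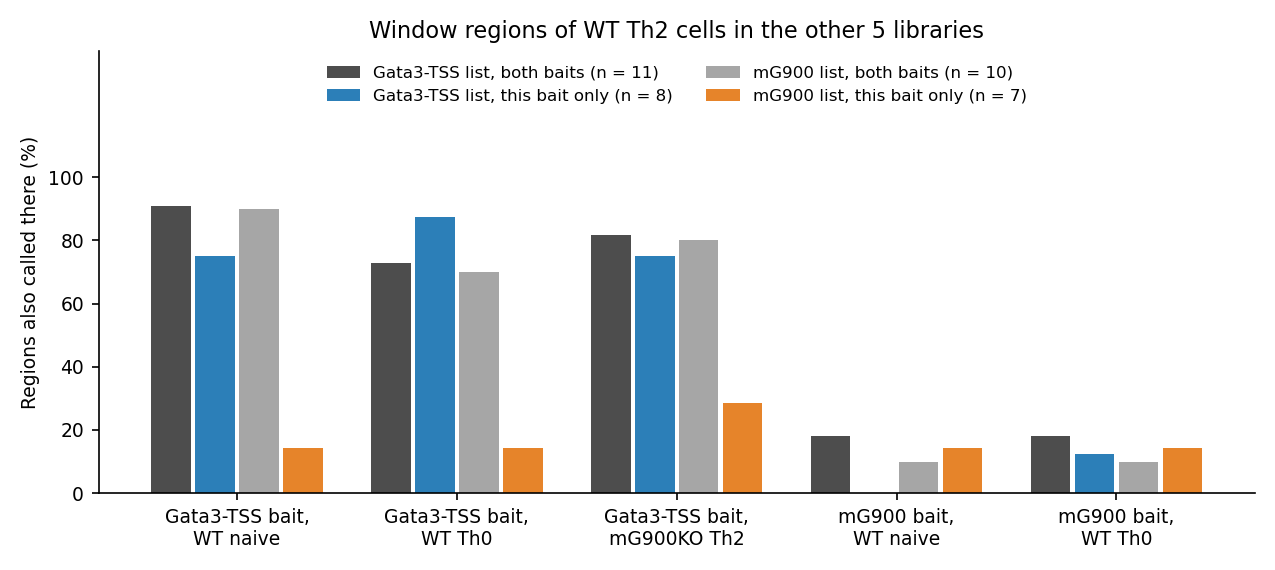
Percent of the window regions of WT Th2 cells that overlap a region of each of the other 5 libraries, for 4 classes: shared regions as called with either bait (dark and light grey), regions of the *Gata3*-TSS bait alone (blue) and of the mG900 bait alone (orange). The first 3 classes reach 70% or more in the 3 other *Gata3*-TSS libraries and stay under 20% in both other mG900 libraries.

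The stretch shared in Th2 cells was mostly called with the *Gata3*-TSS bait in the other cells, and hardly with the mG900 bait. Of its 224.8 kb, 205.3 kb (91.3%) lay in the *Gata3*-TSS list of naive cells, 189.2 kb (84.2%) in that of Th0 cells and 200.4 kb (89.1%) in that of mG900KO Th2 cells. These libraries called 20.8%, 19.2% and 20.9% of the window. The shared stretch is itself part of the *Gata3*-TSS list of WT Th2 cells. Of all bases of that list in the window, the same libraries called 75.3%, 73.8% and 71%. Of the same 224.8 kb, 13.8 kb (6.13%) lay in the mG900 list of naive cells and 0.0 kb in that of Th0 cells, which called 4.36% and 6.04% of the window. Of all bases of the mG900 list of WT Th2 cells in the window, these lists called 9.65% and 13%. By region, 10 of the 11 shared regions of the *Gata3*-TSS list overlapped the naive library of that bait, 8 its Th0 library and 9 its mG900KO Th2 library, and 2 overlapped each of the other mG900 libraries. The region of the mG900 bait at *Taf3* was the only shared region of its list with an overlap in all other 5 libraries.

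The regions of the *Gata3*-TSS bait alone recurred to a like extent, with 6 of 8 called in naive, 7 in Th0 and 6 in mG900KO Th2 cells. The contact on the mG900 bait had no overlap in another library, but only naive and Th0 cells with the *Gata3*-TSS bait could have given one. Of the 7 regions of the mG900 bait alone, 4 had no overlap in any other library, among them chr2:9805809-9817095, which lies where no library of the *Gata3*-TSS bait called a region. The region at chr2:9286927-9297273 was called from *Gata3*-TSS in naive, Th0 and mG900KO Th2 cells and not in WT Th2 cells. The region at chr2:9133742-9148112 was called with the *Gata3*-TSS bait in mG900KO Th2 cells alone. All libraries of a bait share its primers, so recurrence among them is not independent of the bait. The mG900 bait also had fewer other libraries, with fewer regions each over the genome, in which a region could recur.

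**Figure D3:**
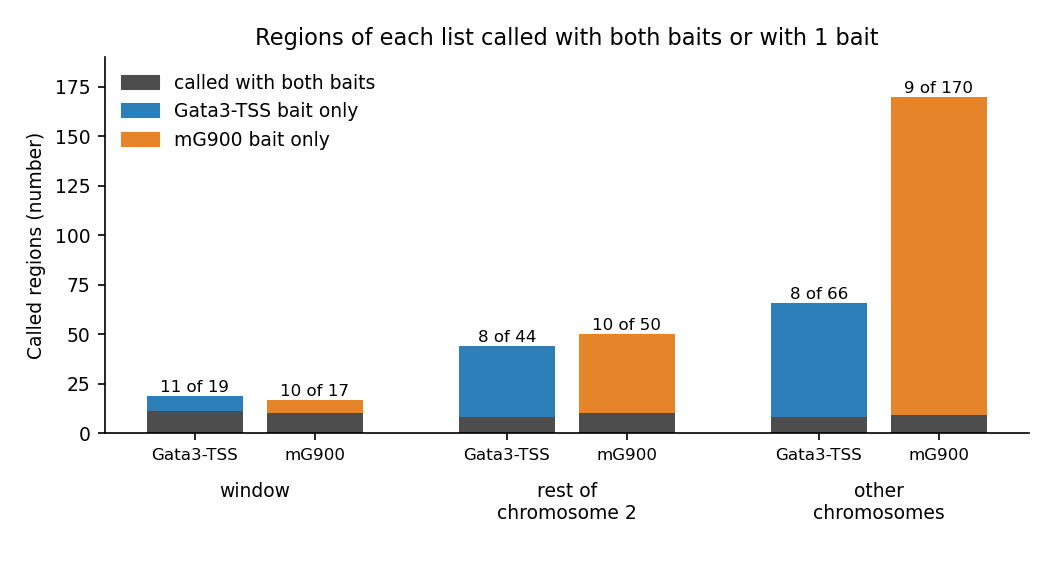
Number of regions called in WT Th2 cells with each bait in the window, on the rest of chromosome 2 and on the other chromosomes, split into regions called with both baits (grey) and with 1 bait (blue or orange). The label on each bar gives the grey part of the total, from 11 of 19 in the window down to 9 of 170 for the mG900 bait on other chromosomes.

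Outside the window the lists shared less. On the rest of chromosome 2, 8 of 44 regions of the *Gata3*-TSS list (18.2%) and 10 of 50 of the mG900 list (20%) were contacted by both baits. The background of single fragments there was 0.357% of the 862069 NlaIII fragments in the *Gata3*-TSS list and 0.389% in the mG900 list. The shared stretch was 87.9 kb, or 14.1% and 13% of the bases of the lists, which covered 0.347% and 0.377% of the rest of the chromosome. On the other chromosomes, 8 of 66 (12.1%) and 9 of 170 (5.29%) were shared, and 0.348% and 0.927% of 11971148 single fragments lay in the lists, which is not the scale of regions of this length. The shared stretch was 907.4 kb, 10.4% of the 8719.9 kb of the *Gata3*-TSS list and 3.97% of the 22878.7 kb of the mG900 list, and the lists covered 0.343% and 0.9% of these chromosomes. Regions called on other chromosomes were longer, with a median of 131.0 kb with the *Gata3*-TSS bait and 131.2 kb with the mG900 bait, against 13.6 and 13.0 kb on the rest of chromosome 2. The shortest held 501 NlaIII sites elsewhere and 51 on chromosome 2. The authors gave the calling program a larger size setting between chromosomes than within a chromosome. Lengths are therefore not comparable between chromosome 2 and the other chromosomes.

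Along chromosome 2, the shared regions lay nearer to the baits, which the classing favours, since both lists are denser there. The lists covered 22.7% and 19.8% of the window, against 0.347% and 0.377% of the rest of chromosome 2. The median distance of the shared regions from the *Gata3*-TSS bait was 1.12 Mb, against 12.6 Mb for the regions of that bait alone. From the mG900 bait it was 1.82 Mb, against 6.97 Mb. The lists reached 145 Mb and 111 Mb from their baits. Of the 36 regions that the *Gata3*-TSS bait alone called on the rest of the chromosome, 11 lay within 100 kb of the mG900 list, and of the 40 of the mG900 bait alone, 10 lay within 100 kb of the *Gata3*-TSS list, with median gaps of 543 and 491 kb. The share of all positions there within 100 kb of each list was not determined, so these counts have no background beside them.

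**Figure D4:**
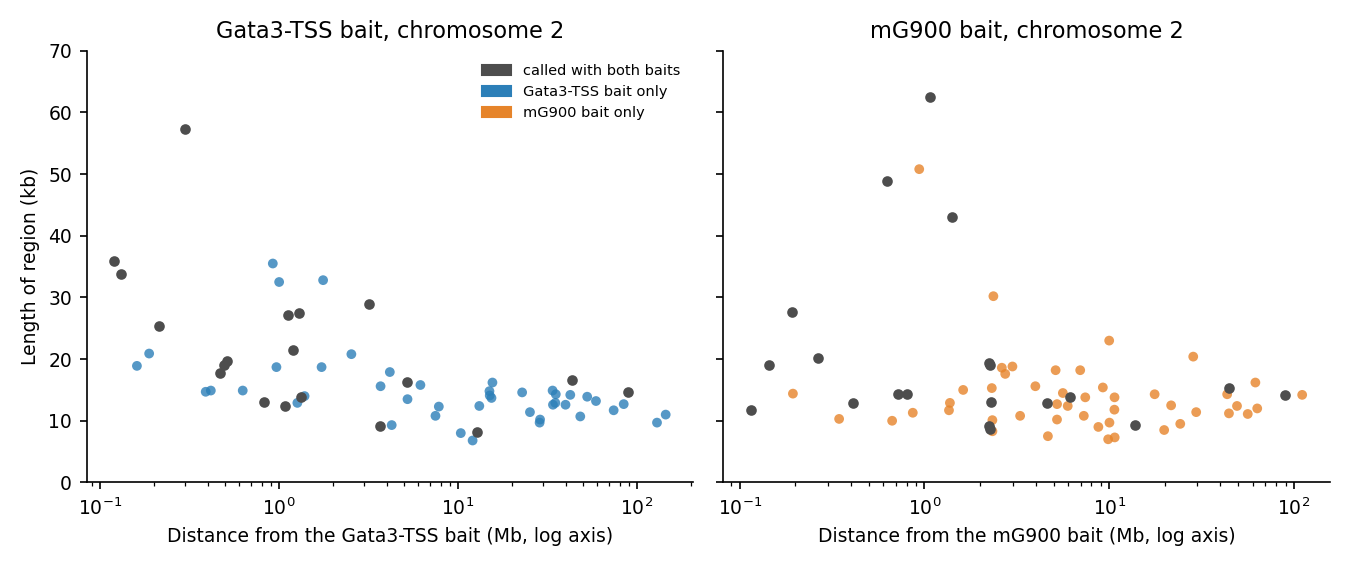
Length of each region on chromosome 2 in kb against its distance from its own bait in Mb on a log axis, for the *Gata3*-TSS bait (left) and the mG900 bait (right). Grey points are shared regions, with median distances of 1.12 and 1.82 Mb, and coloured points are regions of 1 bait alone, with median distances of 12.6 and 6.97 Mb.

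The shared loci on the rest of chromosome 2 fell at 7 loci. At *Celf2*, which encodes an RNA-binding splicing regulator, the *Gata3*-TSS bait called chr2:6696613-6725626 (29.0 kb) and the mG900 bait called chr2:6685409-6704428 and chr2:6704931-6724357, with 27.2 kb in common within the gene. The mG900 bait called 4 more regions in *Celf2*, so that it covered 109.1 kb of the gene against 29.0 kb with the *Gata3*-TSS bait. The shared stretch holds a *Celf2* promoter of RefSeq, which is shown as the one protein-coding promoter of chromosome 2 in both lists with a match to any of the 3 motifs.
*Celf2* promoter, chr2:6721613-6721912, minus strand: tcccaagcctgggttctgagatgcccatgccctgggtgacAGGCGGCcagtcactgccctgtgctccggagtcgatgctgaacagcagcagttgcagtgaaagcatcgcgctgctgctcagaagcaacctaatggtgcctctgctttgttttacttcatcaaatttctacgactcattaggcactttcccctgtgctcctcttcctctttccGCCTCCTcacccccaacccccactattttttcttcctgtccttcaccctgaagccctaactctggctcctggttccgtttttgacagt
It held 2 CTCF matches, in capitals. In all, 8 of the 2847 RefSeq promoters of chromosome 2 lay wholly inside both lists, of 5 genes.

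At *Prkcq*, which encodes protein kinase C theta of T cell receptor signalling, the *Gata3*-TSS bait called 3 regions and the mG900 bait called 4, with 14.5 kb in common of 47.7 and 39.3 kb. Its start lay in the region chr2:11164516-11191927 of the *Gata3*-TSS bait and in no region of the mG900 bait. At *Il2ra*, the α chain of the IL-2 receptor, the baits called different ends of the gene. The *Gata3*-TSS bait called chr2:11624835-11657586 (32.8 kb), which holds the start, and the mG900 bait called chr2:11674262-11691896 (17.6 kb), 16.7 kb away. *Camk1d* (a calcium/calmodulin-dependent kinase), *Fam107b* and *Nebl* were likewise called with each bait at places that did not overlap. Of the 73 protein-coding genes of chromosome 2 with a base in either list, 15 were in both, 11 of them with overlapping regions and 4 with regions side by side. Among all 1843 protein-coding genes of the chromosome, 44 were in the *Gata3*-TSS list and 44 in the mG900 list. Both lists are denser near the baits, which favours genes in both.

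The other shared loci were further off. Both baits called 9.2 kb at chr2:13549382-13558576, without a protein-coding gene, and 13.0 kb at chr2:15052465-15065478, over *Nsun6*, an RNA methyltransferase, and *Arl5b*, a small GTPase. They shared 0.7 kb in *Gad2*, a glutamate decarboxylase, at chr2:22677584-22678282. The *Gad2* overlap made up 8.62% and 7.51% of its regions and was lost when an overlap of 50% of the shorter region was asked for. At chr2:98657378-98671576, over *Gm10800* and *Gm10801*, both baits called nearly the same 14.2 kb, and each of the other 5 libraries also called a region there. Repeats made up 59.3% of this shared stretch, against 32.2% over the rest of chromosome 2, and their part in the calls was not tested.

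The 5 longest regions that the *Gata3*-TSS bait alone called on the rest of chromosome 2 lay at *Il2ra* (32.8 kb), *Mindy3* (20.8 kb), *Rbm17* (18.7 kb), the start of *Camk1d* (17.9 kb) and *Paxx*, *Clic3* and *Ptgds* (16.2 kb). Those of the mG900 bait alone lay at *Celf2* (30.2 kb), *Pip4k2a* (23.0 kb), *Rc3h2*, *Zbtb6* and *Zbtb26* (20.4 kb), *Upf2* (18.8 kb) and *Usp6nl* (18.6 kb). The *Gata3*-TSS regions at *Il2ra* and *Mindy3* were each called in the 3 other libraries of that bait. The mG900 region at *Rc3h2* was called in the same 3 libraries, and not with the *Gata3*-TSS bait in WT Th2 cells. Of all 40 regions of the mG900 bait alone, 32 had no overlap in another library, and of the 36 of the *Gata3*-TSS bait alone, 18 had none. The chances of recurrence were unequal. Over the genome, the *Gata3*-TSS bait called 277 regions in naive, 172 in Th0 and 169 in mG900KO Th2 cells. The mG900 bait called 72 in naive and 97 in Th0 cells.

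**Figure D5:**
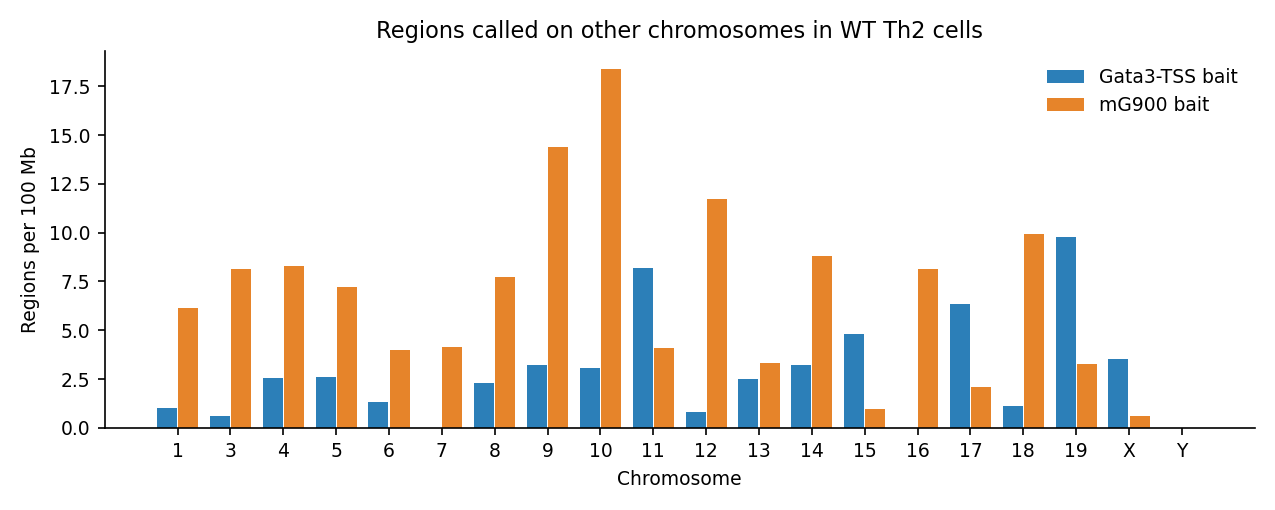
Regions per 100 Mb of each chromosome other than chromosome 2 in WT Th2 cells, with the *Gata3*-TSS bait (blue) and the mG900 bait (orange). Orange bars are highest on chromosomes 10 and 9 (18.4 and 14.4), and blue bars on chromosomes 19 and 11 (9.77 and 8.19).

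On the other chromosomes the baits differed in where their regions lay. The mG900 list held 24 regions on chromosome 10 (14.1% of its 170) and 18 on chromosome 9 (10.6%), where the *Gata3*-TSS list held 4 on each. The *Gata3*-TSS list held 10 regions on chromosome 11 (15.2% of its 66) and 6 on each of chromosomes 17, 19 and X, where the mG900 list held 5, 2, 2 and 1.

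The shared regions on other chromosomes fell at 8 loci. On chromosome 10, both baits called 132.0 kb at chr10:4332563-4464535, over *Akap12*, a scaffold of protein kinase A, *Zbtb2*, *Rmnd1* and *Armt1*, and 98.8 kb at chr10:19863653-19962462, over *Pex7*, a receptor of peroxisomal import, and *Map3k5*, a kinase of stress signalling. On chromosome 13 they shared 115.6 kb at chr13:13998447-14114047, over *B3galnt2*, *Tbce*, *Ggps1* and *Arid4b*. On chromosome 14 they shared 47.2 kb at chr14:20593441-20640645 in *Usp54*. The shared 138.2 kb on chromosome 18 (chr18:34871461-35009689) held *Etf1*, which encodes a translation release factor, and *Hspa9*, a mitochondrial chaperone. On chromosome 8 a single region of the *Gata3*-TSS bait (144.5 kb) overlapped 2 of the mG900 bait, without a protein-coding gene in the shared part. The loci at chr9:3003683-3120495 and chr11:3141962-3273382 (*Sfi1*, *Drg1* and *Eif4enif1*) were called in all 7 libraries. Repeats made up 61.6% of the shared stretch on chromosome 9 and 37.7% of that on chromosome 11, against 36.7% over the other chromosomes. Their part in these calls was not tested. The loci at *Akap12* and at *Etf1* were called in none of the other 5.

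The 3 longest regions of the *Gata3*-TSS bait alone on other chromosomes were chr1:74620431-74845052 (224.6 kb), with *Wnt6* and *Wnt10a* among 6 protein-coding genes, chr9:48416165-48594686 (178.5 kb), with *Rexo2*, *Rbm7*, *Gm5617* and *Nnmt*, and chr19:7436314-7599657 (163.3 kb), with *Rtn3*, *Atl3*, *Pla2g16* and *Lgals12*. Those of the mG900 bait alone were chr14:14434313-14731426 (297.1 kb) at *Slc4a7*, chr10:28459491-28741835 (282.3 kb) at *Ptprk* and *Themis*, and chr6:38298065-38556543 (258.5 kb), with *Luc7l2* and *Zc3hav1* among 6 genes. The chromosome 9 region was called in the 3 other libraries of the *Gata3*-TSS bait, and the 3 of the mG900 bait had no overlap in another library. Of the 161 regions of the mG900 bait alone, 140 had none, as had 34 of the 58 of the *Gata3*-TSS bait alone. Here too the chances were unequal, since the mG900 bait had fewer other libraries, with fewer regions each over the genome.

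Over the genome, 227 of 21938 protein-coding genes (1.03%) had a base in the *Gata3*-TSS list and 420 (1.91%) in the mG900 list. Beside these, 5 of 37 genes of T cell identity and signalling (13.5%) were in each list, of which *Prkcq* and *Il2ra* lie on chromosome 2 and were in both. This gene list and those below were chosen with earlier results of these data known. Their shares can therefore not show an excess over the genome. The *Gata3*-TSS list also held *Tcf7*, which encodes the transcription factor TCF1, and *Ikzf1*, which encodes Ikaros, both on chromosome 11. Each of these was called in 2 other libraries. The mG900 list held *Il7r*, the α chain of the IL-7 receptor, *Tox*, a nuclear factor of thymocytes, and *Themis*, a signalling protein of thymocytes. The first pair was called in 1 other library each and *Themis* in none.

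Of 34 genes of Th2 cells, 0 were in the *Gata3*-TSS list and 4 (11.8%) in the mG900 list. One was *Gata3* itself, which could not be in the *Gata3*-TSS list. That bait lies in the gene and called nothing within 102.1 kb of itself. *Il1rl1*, which encodes the IL-33 receptor, and *Il18r1*, of the IL-18 receptor, are neighbours and were in the same region (chr1:40378221-40493030, 114.8 kb), and *Bcl11b*, a transcription factor of the T lineage, was in chr12:107881268-108000440 (119.2 kb). Neither region was called in another library. Of 27 genes of other helper T cell subsets, *Ctla4*, an inhibitory receptor, was in the *Gata3*-TSS list and *Ahr*, a ligand-activated transcription factor, in the mG900 list. Of 20 genes of chromatin loops and coactivators, 0 were in the *Gata3*-TSS list and *Crebbp*, the coactivator CBP, was in the mG900 list. Of 33 protein-coding genes of the neighbourhood, 7 (21.2%) were in the *Gata3*-TSS list and 9 (27.3%) in the mG900 list, with *Celf2*, *Camk1d*, *Taf3*, *Sfmbt2*, *Prkcq* and *Il2ra* in both. These genes were listed for their position near the baits, where both lists are denser. A share above that of the genome was therefore fixed in advance. *Rbm17* was in the *Gata3*-TSS list alone, and *Upf2* and *Usp6nl* in the mG900 list alone, as was *Gata3*, whose class was fixed. Long genes have more bases that a region can meet, and the part of gene length in these shares was not tested.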

How the data were processed

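4C-seq was made from WT Th2 cells with 2 baits. For each library the authors ran w4Cseq on their reads and deposited the regions it called. Its size setting was larger between chromosomes than within a chromosome. The deposited values are of another kind than counts, namely starts and ends in bases, and the submitters' processing notes name mm10. The aligner was not given in the sources used here. Depth is unknown, and a contact just under the threshold of the caller is missing from a list.

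Region ends were checked against NlaIII sites of GRCm38. Regions were assigned to the window, the rest of chromosome 2 or other chromosomes by their midpoint. Genes came from GENCODE M21, and promoters from RefSeq (GRCm38.p6). The text names every locus called with both baits, the 5 longest regions of each bait alone on the rest of chromosome 2 and the 3 longest elsewhere, and every listed gene inside a region, except 1 locus and 1 gene that are not reported here. Regions, gene lists and alternatives were chosen with earlier results of these data known. Alternatives asked for more overlap or allowed gaps, joined neighbouring calls, and left out short, recurrent or bait-near regions. Overlap code gave 0 mismatches on 300 simulated list pairs. The software was Python 3.11.15 with numpy 2.4.6, scipy 1.17.1 for intervals, and matplotlib 3.10.9.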

Additional observations from a re-analysis of the deposited data

How the results depend on the processing

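Of 45 values under the alternatives, 33 stayed within 1.5 times the original count or, for shares of bases, moved by less than a 95% binomial interval over NlaIII fragments extends to either side. Neighbouring fragments are called together, so the interval serves as a yardstick and no more. All counts in the window stayed within 1.5 times. One alternative left out regions shorter than the median of their list, taken separately for chromosome 2 and for other chromosomes. Then 4 of 15 (26.7%, *Gata3*-TSS list) and 5 of 24 (20.8%, mG900 list) were shared on the rest of chromosome 2, against 18.2% and 20%. On other chromosomes 4 of 33 (12.1%) and 4 of 85 (4.71%) were shared, against 12.1% and 5.29%. The shared bases on the rest of chromosome 2 rose from 7.23% to 10.1% of those in either list. Asking for an overlap of 50% of the shorter region left 6 shared regions of the mG900 list on the rest of chromosome 2, in place of 10. Joining neighbouring calls gave 8.01% of bases there. Without regions called in all 7 libraries, the share of bases was 32% in the window, 6.14% on the rest of chromosome 2 and 2.17% on other chromosomes, against 36%, 7.23% and 2.96%. Without regions within 100 kb of a bait it was 47.2% in the window, and counted in NlaIII fragments it was 2.82% on other chromosomes. The cause of these shifts was not tested beyond the regions that each alternative leaves out. No paired analysis was possible because each bait has 1 library of WT Th2 cells. For the same reason no replicate could be left out. The lists hold no score, so a stricter threshold was not tried.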
